A study of Homo sapiens with 30 samples.

Results

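The comparison described here is that of 22Rv1 cells kept with DMSO for 4 h against 22Rv1 cells kept with DMSO for 2 h, in 3 libraries each. These 6 of the 30 libraries of the series were chosen by the drug and time in their titles. 22Rv1 is a human prostate cancer line that grows despite castration. The study used SLAM-seq in this line to follow RNA synthesis under KB742 and KI-ARv-03, both inhibitors of CDK9, and the DMSO libraries are the vehicle arm. All cells first took up 800 µM 4-thiouridine (s4U) for 30 min, and 3 libraries (0 h) were collected then. The medium was then exchanged for medium that held 800 µM s4U together with DMSO or with an inhibitor (KB742 at 1.2 µM, KI-ARv-03 at 4 µM), and the collections followed at 2, 4 and 8 h. The DMSO 4 h and DMSO 2 h cells therefore share the line, the labelling pulse, the exchange of medium and the vehicle. They differ in 2 more hours in the new medium, which are also 2 more hours of s4U, and the effects of time, medium and s4U cannot be told apart here.

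SLAM-seq separates young from old RNA. Cells build s4U into the RNA they are making, iodoacetamide alkylates it after extraction, and reverse transcription then reads it as C in place of T. While s4U stays in the medium, labelled RNA replaces unlabelled RNA, fast for messages with a short life (immediate early genes, many transcription factors) and slowly for messages with a long life (ribosomal protein and respiratory chain genes). A level and a conversion level are reported for each gene. Its level is the number of 3′ end reads, rescaled to a common library total (CPM), and is relative to the other genes of the library. Its conversion level is the deposited fraction of conversions in percent. A fall in level in these bulk libraries cannot separate fewer cells with the RNA from less RNA per cell.

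Between 4800187 and 6372002 reads lay behind the deposited CPM values of the 6 libraries, the genes kept held 1704726 to 2623194 of these, and 12995 to 13682 genes were detected in each. The treatment field of 2 of the 3 DMSO 4 h samples (replicates 2 and 3) names 2 h. On the first principal component of levels over all 30 libraries (32.1% of the variance) the DMSO 4 h libraries stood at 15.2, 17.2 and 11.8 and the DMSO 2 h libraries at -27.2, -34.4 and -23.0, so those 2 libraries lay next to replicate 1. The titles were used, and counts with replicate 1 alone at 4 h are given beside the main counts. Luminal prostate markers (among them FOXA1, HOXB13, KLK3, KRT8 and KRT18) were detected, 7 of 7, with a summed level of 1157 to 1224 CPM at 4 h and 1339 to 1550 CPM at 2 h. Of 4 neuroendocrine markers 3 were detected, at a sum of 55.0 to 139 CPM at 4 h and 25.6 to 102 CPM at 2 h, with INSM1 at 0. Of 3 basal markers 1 was detected, TP63, at up to 0.365 CPM, with KRT5 and KRT14 at 0. Of 2 endothelial markers PECAM1 was detected, at up to 0.399 CPM, with VWF at 0. Both stromal markers were detected, at a sum of 11.01 to 15.7 CPM at 4 h and 9.13 to 19.7 CPM at 2 h, nearly all of it COL1A1. Of 2 immune markers CD68 was detected, at 0.490 to 1.20 CPM at 4 h and 1.94 to 3.20 CPM at 2 h, with PTPRC at 0. The part of these markers in the results was not tested. Among the other groups, 0 h replicate 3 and KB742 2 h replicate 2 had only 12166 and 12041 genes detected, and KI-ARv-03 4 h replicate 1 had a mean conversion of 1.18% against 0.383% and 0.422% in its replicates. The main values that include one of these 3 libraries are followed by the values without it.

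Mean conversion was higher at 4 h than at 2 h in every library. The mean conversion of a library over its reads on the genes kept was 1.12%, 1.01% and 1.12% at 4 h and 0.655%, 0.827% and 0.895% at 2 h. The lowest 4 h library lay above the highest 2 h library. The means were 1.08% ± 0.0667 at 4 h and 0.792% ± 0.123 at 2 h (SD, n = 3 each), a difference of 0.291 percentage points. The exact two-sided permutation test gave p = 0.1, the smallest value that 3 against 3 allow. Without weighting by reads, the mean over genes was 2.07% ± 0.155 at 4 h and 1.17% ± 0.182 at 2 h, a difference of 0.892 points. In order of time, the DMSO means were 0.346% at 0 h (0.374% without replicate 3), 0.792% at 2 h, 1.08% at 4 h and 1.23% ± 0.302 at 8 h, so the step between 4 and 8 h was within the spread of the 8 h libraries. KB742 libraries averaged 0.413% ± 0.0989 at 4 h and 0.431% ± 0.0766 at 2 h (0.468% without replicate 2). KI-ARv-03 libraries averaged 0.662% ± 0.450 at 4 h, where 1 library stood at 1.18% (0.402% without it), and 0.397% ± 0.0220 at 2 h (SD, n = 3 each).

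**Figure D1:**
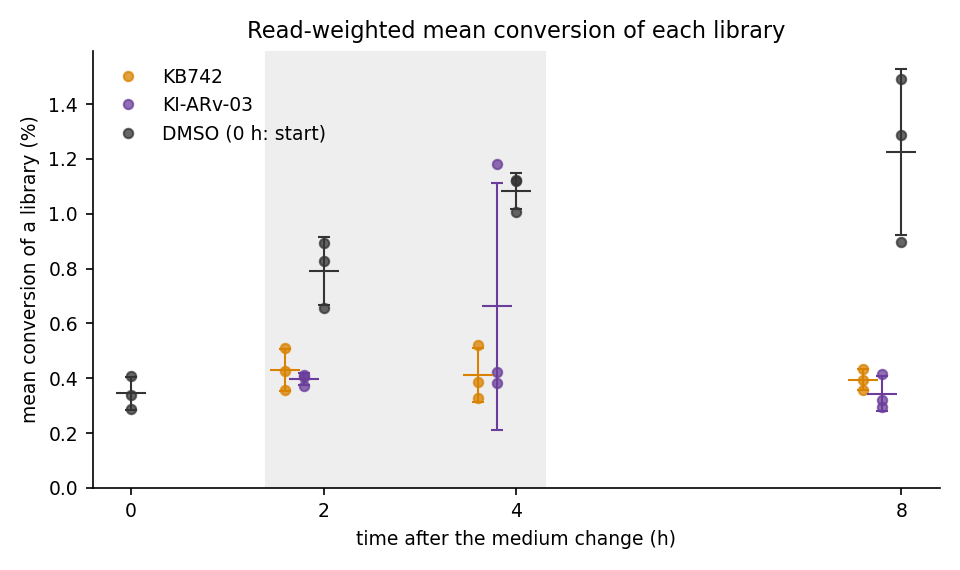
Read-weighted mean conversion of each library in percent (vertical axis) at each time in hours after the medium change (horizontal axis), with the mean and SD of 3 libraries as bars, for KB742, KI-ARv-03 and DMSO; the 2 and 4 h times are shaded. The 3 DMSO 4 h libraries (1.01% to 1.12%) sit above the 3 DMSO 2 h libraries (0.655% to 0.895%).

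Conversion rose gene by gene. Of 7648 genes with enough reads, 337 had a higher conversion at 4 h than at 2 h (4.41% of genes tested) and 0 a lower one, in limma on the arcsine square root of the fraction with Benjamini-Hochberg adjustment at 0.05. At an unadjusted p under 0.05 there were 1404 higher and 24 lower. Over all genes tested the median conversion was 0.863% at 4 h and 0.528% at 2 h, and 6082 of 7648 genes were higher at 4 h. The 337 called genes, which this contrast itself selected, had a median of 8.50% at 4 h and 2.38% at 2 h. In 334 of them the 3 and 3 libraries did not overlap, beside 2113 of all 7648 genes tested, in either direction. The count of called genes depended on single libraries: it was 134, 195 and 242 without DMSO 2 h replicates 1, 2 and 3, and 208, 248 and 118 without DMSO 4 h replicates 1, 2 and 3. With replicate 1 alone at 4 h, 79 genes were called, 63 of them among the 337. On a log2 scale in place of the arcsine, 7 genes passed, all of them among the 337, and all 337 kept their direction.

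The largest gains belonged to genes of varied function. GRWD1, a histone-binding WD-repeat protein of ribosome assembly and replication licensing, had conversions of 26.4%, 37.0% and 33.2% at 4 h and 8.33%, 14.5% and 4.87% at 2 h. All 4 h libraries were above all 2 h libraries, by 23.0 percentage points on average (adjusted p = 0.000151). EGLN2, a prolyl hydroxylase that marks HIF subunits for decay in normal oxygen, stood at 29.2%, 26.7% and 29.1% at 4 h and 8.61%, 9.11% and 7.36% at 2 h (adjusted p = 5.30e-06). Its replicates lay close together at both times, and the times stood 20.01 points apart. TOB2, an adaptor that brings the CCR4-NOT deadenylase to messages, had 31.2%, 30.7% and 30.8% at 4 h against 13.8%, 10.3% and 14.7% at 2 h (adjusted p = 0.000866). The 4 h values were nearly equal, and the times did not overlap.

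Other genes with large gains were TMEM115 of the Golgi (31.7% ± 3.93 at 4 h, 9.92% ± 2.67 at 2 h) and PHLDA3, a p53-induced brake on AKT signalling (27.0% ± 6.73 at 4 h, 8.39% ± 2.48 at 2 h). CPTP, which carries ceramide-1-phosphate between membranes, stood at 31.8% ± 2.31 at 4 h and 13.4% ± 1.20 at 2 h. TREX1, the main cytosolic 3′ DNA exonuclease, was already at 18.6% ± 2.83 at 2 h and reached 36.8% ± 3.72 at 4 h. KBTBD6, a substrate adaptor of a CUL3 ubiquitin ligase, had 25.3% ± 5.06 at 4 h and 7.61% ± 1.11 at 2 h. C1orf35 (32.6% ± 7.84 at 4 h, 15.1% ± 1.06 at 2 h) and TMEM223 (24.9% ± 4.86 at 4 h, 8.74% ± 0.838 at 2 h) completed the 10 largest (SD, n = 3 each). The adjusted p-values of these 7 genes in limma lay between 2.73e-05 for TMEM223 and 0.0207 for TREX1. None of these 10 genes was called for level: GRWD1 stood at 19.5 ± 9.58 CPM at 4 h and 38.3 ± 7.94 CPM at 2 h, and TOB2 at 112 ± 12.2 CPM at 4 h and 72.2 ± 26.1 CPM at 2 h.

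**Figure D2:**
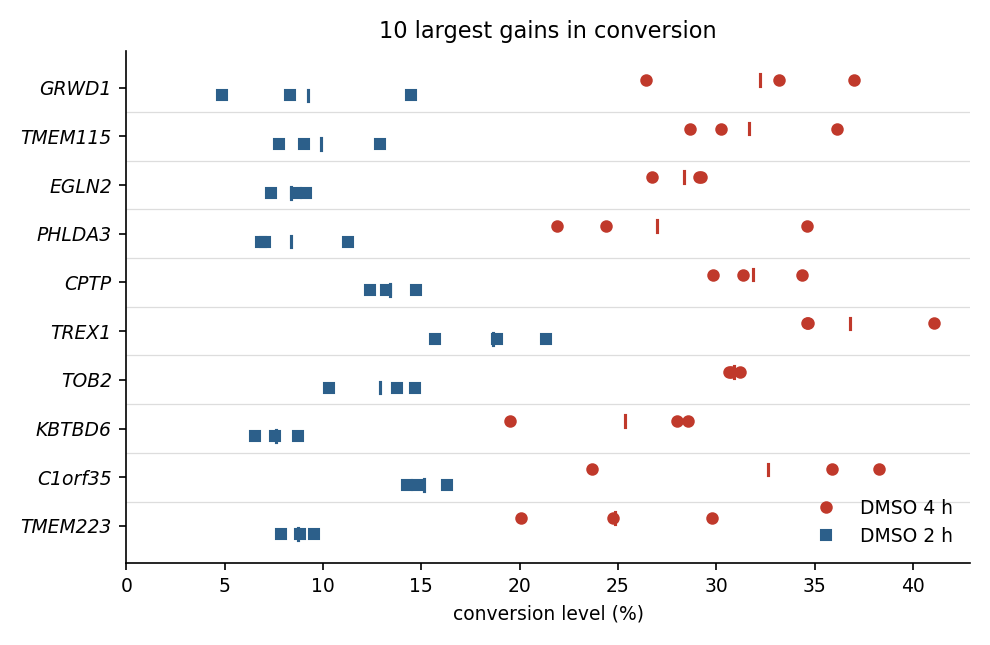
Conversion level in percent (horizontal axis, from 0) of the 10 genes with the largest gains, 1 point per library, DMSO 4 h circles above DMSO 2 h squares, with short lines at the means. Only called genes with 3 values at each time and no overlap between the times were eligible. The 3 libraries at 4 h therefore lie to the right of the 3 at 2 h by choice. The times stand from 16.1 points apart on average in TMEM223 to 23.0 points in GRWD1.

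The values of the 337 genes in the other libraries place them along the time course. Those libraries are not part of the difference between 4 and 2 h, but they entered the fit and shaped its variances. With the DMSO 4 h and 2 h libraries fitted alone 440 genes were called, 291 of them among the 337. The median conversion of the 337 was 0.647% at 0 h (0.718% without replicate 3) and 13.0% at 8 h with DMSO, beside 0.236% (0.271% without it) and 1.02% over all genes. Of the 234 of them with enough reads at both ends, 223 were called higher in conversion at 8 h than at 0 h, while 42.9% of all genes tested were. Without 0 h replicate 3 and the other 2 libraries that stand apart, 222 of 234 were called. By direction alone 233 of the 234 were higher, beside 91.45% of all genes tested. With KB742 the 337 genes had a median conversion of 2.00% at 4 h and 1.39% at 2 h (1.63% without replicate 2), and with KI-ARv-03 2.57% at 4 h (2.08% without replicate 1) and 1.33% at 2 h. Conversion was higher at 4 h than at 2 h in 245 of 319 of these genes with KB742, beside 59.4% of all genes tested, and in 221 of 318 without the libraries that stand apart, beside 50.2%. With KI-ARv-03 it was higher in 303 of 320, beside 86.5% of all genes tested, and in 246 of 294 without those libraries, beside 54.3%. Doses and compounds differ, so these values stand side by side. The level of 275 of the 337 was lower at 4 h than at 2 h (5695 of 11413 genes were). Of the 337, 8 were called falls, beside 0.315% of all genes.

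No gene was called higher in level at 4 h, and 36 were called lower, of 11413 tested (0.315%), in limma with trended variances and Benjamini-Hochberg adjustment at 0.05. At an unadjusted p under 0.05 there were 379 higher and 845 lower genes. The quasi-likelihood test of edgeR called 29 genes, none higher, and DESeq2 called 145 lower and 8 higher. The 36 falls ranged from -2.60 to -1.20 on the log2 scale with a median of -1.65. In all 36 the highest 4 h library lay below the lowest 2 h library, a separation that the test itself favours. Over all genes tested the times did not overlap in 2452 of 11413, in either direction. The calls sit close to the threshold and rest on all 6 libraries: without DMSO 2 h replicates 1, 2 and 3 there were 2, 1 and 0 calls, and without DMSO 4 h replicates 1, 2 and 3 there were 2, 15 and 10. With replicate 1 alone at 4 h there were 0. With the DMSO 4 h and 2 h libraries fitted alone, without the spread of the other 24, 5 genes were called, 4 of them among the 36. All 36 stayed below 0 in each of these fits. Scaling to library size called 201 genes and the deposited scaling 164. Both move the median of all genes by -0.22 on the log2 scale, and all 36 were among both sets.

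The functions of the 36 genes are given as background, and no class of function was tested among them. TBX3, a T-box repressor, had 19.6, 18.7 and 16.3 CPM at 4 h and 52.95, 56.3 and 63.9 CPM at 2 h. The libraries of each time lay close together and the times far apart (log2 difference -1.61 ± 0.24 SE, adjusted p = 0.00301, the smallest of the comparison). TLE3, a Groucho corepressor, had 53.95, 41.1 and 39.9 CPM at 4 h and 120.5, 127 and 140.1 CPM at 2 h (-1.51 ± 0.24, adjusted p = 0.00686). IRX3, an Iroquois homeobox factor, had 48.1, 43.9 and 34.2 CPM at 4 h and 102, 98.2 and 92.7 CPM at 2 h (-1.21 ± 0.26, adjusted p = 0.0322). In both genes every 4 h library lay far below every 2 h library. TFAP4, a helix-loop-helix factor, had 0.490, 3.19 and 2.28 CPM at 4 h, a few reads per library, and 13.2, 16.3 and 13.9 CPM at 2 h (-2.49 ± 0.48, adjusted p = 0.0235). HSF2, a heat shock factor, averaged 1.04 CPM at 4 h and 7.20 CPM at 2 h, and SMAD1, which carries BMP signals to the nucleus, 9.94 CPM at 4 h and 31.3 CPM at 2 h. The acetyltransferase EP300, the beta-catenin coactivator BCL9L, SBNO2 and MIDEAS, a subunit of a histone deacetylase complex, were lower as well.

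CUL1, the scaffold of SCF ubiquitin ligases, had 32.9, 29.9 and 35.7 CPM at 4 h and 69.4, 71.8 and 90.03 CPM at 2 h (-1.20 ± 0.22, adjusted p = 0.0176). DTL, a substrate receptor of CUL4 ligases in S phase, averaged 23.8 ± 9.52 CPM at 4 h and 58.1 ± 10.1 CPM at 2 h. The RING-finger proteins RBBP6 and PHRF1 were at a few reads at 4 h. So, among the other falls, were TFAP4, HSF2, MIDEAS, SLX4 and MARS2, with MIDEAS at 0, 0.399 and 0.380 CPM. PHRF1, with the largest fall of all (-2.60 ± 0.55, adjusted p = 0.0319), had 0.490, 3.19 and 0.759 CPM at 4 h and 12.05, 10.1 and 15.98 CPM at 2 h.

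DNA replication and chromosome genes among the falls were CDC6, which licenses replication origins, the nuclease scaffold SLX4 and the cohesin release factor WAPL. CDC6 had 13.7, 11.6 and 11.4 CPM at 4 h and 29.6, 33.0 and 29.8 CPM at 2 h (-1.27 ± 0.27, adjusted p = 0.0322). FAM111B, a serine protease with a level among the highest of the 36, had 136, 149.9 and 162 CPM at 4 h and 382, 378 and 305 CPM at 2 h (-1.24 ± 0.22, adjusted p = 0.0121). No 4 h library came near the lowest 2 h library in either gene. NGDN and UTP3, both of the machinery that builds the small ribosomal subunit, also fell. NGDN had 5.885, 11.6 and 7.97 CPM at 4 h and 37.6, 43.1 and 44.2 CPM at 2 h (-2.21 ± 0.39, adjusted p = 0.0121).

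Membrane carriers and a junction protein fell too. SLC20A1, a sodium-dependent phosphate carrier, had 5.885, 5.18 and 5.31 CPM at 4 h and 22.6, 20.6 and 25.6 CPM at 2 h (-1.89 ± 0.33, adjusted p = 0.0121). SLC61A1, earlier called MFSD5, averaged 4.42 ± 1.86 CPM at 4 h and 27.0 ± 2.33 CPM at 2 h (-2.44 ± 0.48), and SLC38A2, a carrier of neutral amino acids, 18.9 ± 4.69 CPM at 4 h and 55.1 ± 8.10 CPM at 2 h (SD, n = 3 each). CLDN4, a claudin of epithelial tight junctions, had 30.9, 21.1 and 26.2 CPM at 4 h and 77.8, 89.3 and 124 CPM at 2 h (-1.84 ± 0.34, adjusted p = 0.0184). BBC3, the p53-induced apoptosis gene that encodes PUMA, had 4.41, 9.57 and 4.56 CPM at 4 h and 25.6, 20.2 and 27.2 CPM at 2 h (-1.88 ± 0.40, adjusted p = 0.0319). The groups stood apart in both genes, as in all 36. GRB7, an adaptor of receptor tyrosine kinases, fell by 1.97 and ZCCHC24 by 1.95 on the log2 scale (adjusted p = 0.0309 and 0.0219). The kinase CSNK1D, the microtubule protein CAMSAP2, the m6A reader YTHDF1, the methyltransferase METTL13, the mitochondrial tRNA synthetase MARS2 and SCAF8 were among the falls as well.

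**Figure D3:**
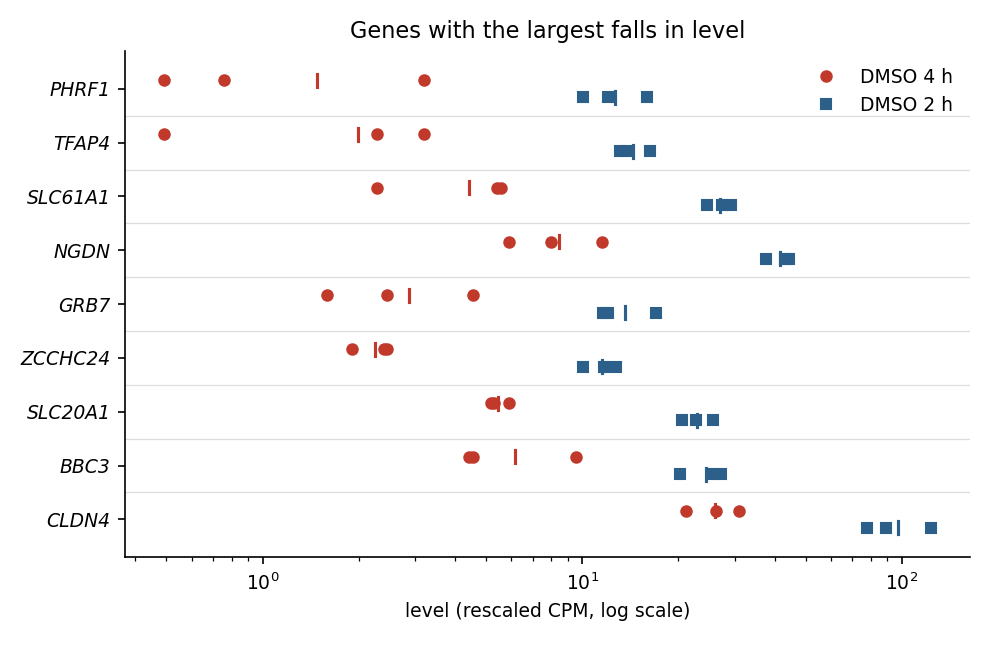
Level in rescaled CPM on a log axis (horizontal) of 9 of the 10 genes with the largest falls at a mean of at least 10 CPM at 2 h, 1 point per library, DMSO 4 h circles above DMSO 2 h squares, with short lines at the means. Only called genes without overlap were eligible, so every 4 h library lies left of every 2 h library by choice. Genes run from PHRF1 (1.48 CPM at 4 h, 12.7 CPM at 2 h) to CLDN4 (26.1 CPM at 4 h, 96.9 CPM at 2 h).

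Among the falls with a conversion value, the RNA left at 4 h had a higher mean conversion. Of the 36, 20 had enough reads for such a value. All 20 were higher at 4 h, beside 6082 of 7648 genes tested. Their median was 4.97% at 4 h and 1.91% at 2 h, beside 0.863% and 0.528% over all genes. In 14 of the 20 the times did not overlap, beside 2113 of all 7648 genes in either direction. CDC6 was at 0%, 0% and 4.91% at 4 h, so its higher mean rests on 1 library (adjusted p = 0.769). Conversion was called higher in 8 of the 20 (4.41% of all genes tested). FAM111B converted at 12.2%, 15.8% and 12.3% at 4 h and 4.11%, 6.20% and 7.12% at 2 h (adjusted p = 0.00114). IRX3 converted at 15.8%, 14.2% and 16.5% at 4 h and 5.33%, 8.02% and 6.07% at 2 h (adjusted p = 0.00384). The lowest 4 h library exceeded the highest 2 h library in both. METTL13, UTP3, DTL and YTHDF1 were also among the 8. TBX3 was at 7.27% ± 2.06 at 4 h and 3.52% ± 1.11 at 2 h and missed the threshold (adjusted p = 0.0781), and EP300 at 3.39% ± 1.98 at 4 h and 2.59% ± 0.445 at 2 h (adjusted p = 0.817).

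The levels of the 36 genes were also followed over the other times, in libraries that are not part of the difference but helped to set the variances behind the calls. Their median level was 70.7 CPM at 0 h (77.0 CPM without replicate 3), 32.8 CPM at 2 h, 11.1 CPM at 4 h and 3.48 CPM at 8 h, while that of all genes tested was 24.8, 22.0, 19.8 and 17.2 CPM. All 36 were called lower at 8 h than at 0 h (29.1% of all genes were), also when the libraries that stand apart were left out. In the cells with KB742, whose 2 h and 4 h libraries are separate from the DMSO ones, all 36 were lower at 4 h than at 2 h, beside 52.2% of all genes. Of these, 6 were called (0.0876% of all genes), and the median difference was -1.07 on the log2 scale (-1.10 without the libraries that stand apart, beside 55.7% of all genes lower). With KI-ARv-03 all 36 were lower too, beside 54.8% of all genes, with 5 called (0.105% of all genes) and a median of -1.11 (-1.10 without those libraries, beside 51.4%). Without them the directions were the same in all 36, and 3 and 2 were called. IRX3 and FAM111B were called with both compounds. IRX3 differed by -1.56 with KB742 and by -1.31 with KI-ARv-03 (adjusted p = 0.0120 and 0.0304), and FAM111B by -1.20 and -1.47 (adjusted p = 0.0197 and 0.00388). Without the libraries that stand apart, IRX3 was called with KB742 alone (adjusted p = 0.0368 and 0.0819) and FAM111B with KI-ARv-03 alone (adjusted p = 0.0529 and 0.0301). CAMSAP2 lay at the other end, at -0.30 with KB742 and -0.04 with KI-ARv-03 (adjusted p = 0.794 and 0.979; -0.32 and -0.13 without those libraries).

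Whether the change between 2 and 4 h itself differed with a compound in the medium was tested as a compound's 4 h minus 2 h difference less that of DMSO. For levels, limma called 0 genes for KB742 and 0 for KI-ARv-03 of 11413 (233 and 235 at an unadjusted p under 0.05), and edgeR and DESeq2 called 0 as well. The 36 falls had been chosen on the DMSO arm of this contrast, so their median of 0.56 with KB742 and 0.60 with KI-ARv-03 (0.65 and 0.64 without the libraries that stand apart) is given as a description only. For conversion, 0 genes were called for KB742 of 7400 (571 at an unadjusted p under 0.05, 539 of them with a smaller gain than in DMSO) and 0 for KI-ARv-03 of 7447 (347, of which 242 were smaller). The smallest adjusted p was 0.0708 and 0.0907. Without the 3 libraries that stand apart, 7 genes were called for KB742 and 1 for KI-ARv-03, all with a smaller gain. Without DMSO 4 h replicate 2, 8 genes were called for KB742. PMEPA1, a TGF-beta-induced feedback gene, had 10.2% ± 0.850 at 4 h and 3.76% ± 0.446 at 2 h with DMSO, 3.13% at 4 h and 2.23% at 2 h with KB742 (adjusted p of the difference = 0.0731), and 3.29% at 4 h and 2.08% at 2 h with KI-ARv-03 (adjusted p = 0.397). When those libraries were left out, PMEPA1 was at 2.57% at 2 h with KB742 and 2.84% at 4 h with KI-ARv-03, and the adjusted p of the difference was 0.0489 and 0.137.

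Level change and labelling went together across genes. Genes were binned by their conversion with DMSO at 8 h, which neither the 4 h nor the 2 h libraries entered. The 2229 genes up to 0.5% conversion at 8 h had a median level difference (4 h minus 2 h) of 0.33 on the log2 scale, the 1262 genes at 1% to 2% one of 0.09, the 585 genes at 5% to 10% one of -0.24, and the 346 genes at 10% to 20% one of -0.41. The 231 genes above 20% were at -0.30, so the order did not hold at the top. Over 7127 genes Spearman's rho was -0.52, a description across genes of the same libraries, which are not independent replicates. The share of genes called for a conversion gain ran from 0.269% in the lowest bin to 35.9% in the highest. With library-size scaling each bin's median moved by -0.23, and with the deposited scaling by -0.22 to -0.27, so that the lowest bin stood at 0.09 and 0.06 and that of 10% to 20% at -0.64 and -0.63. Genes with too few reads for a conversion value at 2, 4 or 8 h, 22 of the 36 falls among them, are not in these bins.

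**Figure D4:**
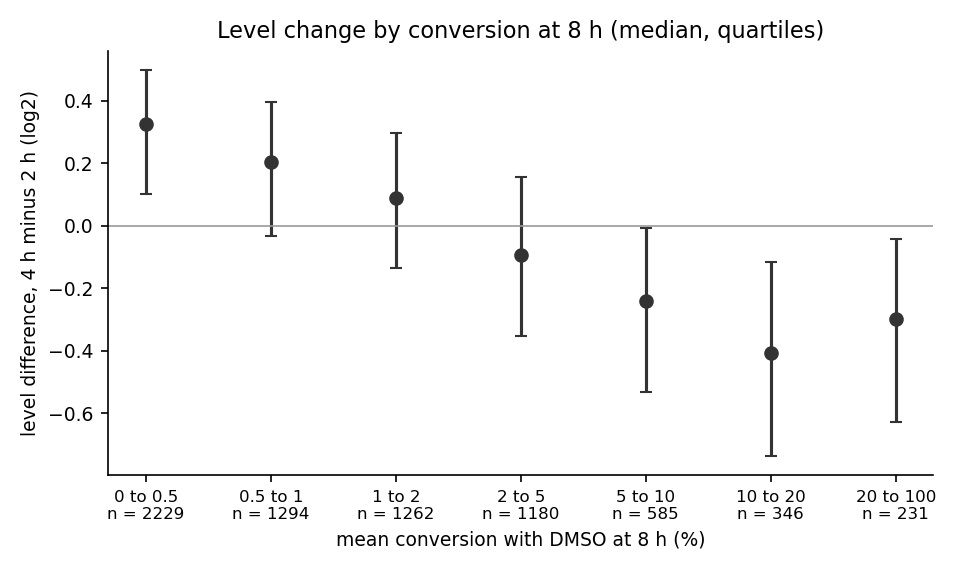
Level difference, DMSO 4 h minus DMSO 2 h, on the log2 scale (vertical axis; points are medians, bars the quartiles over genes) for genes binned by their mean conversion with DMSO at 8 h in percent (horizontal axis, with the number of genes). Medians run from 0.33 in the least converted genes to -0.41 at 10% to 20% and -0.30 above 20%.

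Gene lists kept to this order only in part. Ribosomal protein, respiratory chain and glycolysis genes were weakly labelled and had medians above 0, while luminal transcription factors and ID genes were strongly labelled and had medians below 0. The snoRNA host genes (1.59% at 8 h) had the highest median of the lists, 0.52, P-TEFb genes (1.96% at 8 h) were at -0.40, immediate early genes (34.3% at 8 h) at -0.26 and nuclear long non-coding genes (13.8% at 8 h, 3 genes) at 0.23. Cytosolic ribosomal protein genes had a median level difference of 0.49, with 76 of 77 above 0 (5718 of 11413 genes were), and 0 were called (11 higher at an unadjusted p under 0.05). Their RNA was weakly labelled, at a median of 0.249% at 4 h and 0.182% at 2 h, and 0 of 71 were called for conversion. RPL19 of the large subunit had 2684, 2650.0 and 3287 CPM at 4 h and 1721, 1750.0 and 1777 CPM at 2 h, without overlap (0.71 ± 0.24, adjusted p = 0.239). The nuclear genes of the respiratory chain were alike, with 74 of 75 above 0, a median of 0.49 and 0 called (21 higher at an unadjusted p under 0.05). UQCR11 of complex III had 631, 572 and 544 CPM at 4 h and 425, 416 and 445 CPM at 2 h (0.44 ± 0.20, adjusted p = 0.418), again without overlap. Levels did not overlap in 2452 of all 11413 genes tested, in either direction. Glycolysis genes (median 0.41, 15 of 19 above 0) and snoRNA host genes (0.52, 8 of 8 above 0) had 0 calls for level as well. With library-size scaling the medians of these 4 lists were 0.26, 0.25, 0.17 and 0.29, where the median of all genes was -0.22. The medians of proteasome genes (0.25) and sterol synthesis genes (0.18) do not keep their sign under every scaling: with the deposited scaling they were -0.02 and -0.09.

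Luminal transcription factors had a median difference of -0.57, with 16 of 19 below 0 (5695 of 11413 genes were), and 2 were called, TBX3 among them, beside 0.315% of all genes. Conversion was called higher in 5 of 15, beside 4.41% of all genes, with medians of 7.14% at 4 h and 3.52% at 2 h. SOX4 converted at 27.2%, 25.3% and 24.3% at 4 h and 11.5%, 16.7% and 15.7% at 2 h (adjusted p = 0.000573), while its level was 194 ± 97.1 CPM at 4 h and 210 ± 7.45 CPM at 2 h. FOXA1, a pioneer transcription factor, had 69.2, 36.3 and 56.9 CPM at 4 h and 65.4, 113 and 105.5 CPM at 2 h, with overlap (-0.80 ± 0.35, adjusted p = 0.394). KLK3, which encodes PSA, stood at 15.4 ± 4.00 CPM at 4 h and 13.7 ± 3.37 CPM at 2 h.

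The ID and BMP/TGF-beta feedback genes had the lowest median of the lists plotted, -0.71, with 12 of 12 below 0 and 0 called. ID3, which blocks helix-loop-helix factors, had 20.6, 12.8 and 24.3 CPM at 4 h and 28.5, 50.9 and 37.8 CPM at 2 h (-0.99 ± 0.39, adjusted p = 0.340). ID4 (16.9% ± 7.01 at 4 h, 5.91% ± 1.58 at 2 h) and PMEPA1 gained conversion (adjusted p = 0.00490 and 2.55e-06). Genes of CCR4-NOT and TOB/BTG, which shorten poly(A) tails, had a median of -0.52 with 0 of 22 called for level. For conversion 3 of 19 were called, TOB2 and TNRC6A among them, beside 4.41% of all genes. Among 24 p53 targets 1 was called lower, BBC3, beside 0.315% of all genes, at a list median of -0.41. CDKN1A, the p21 inhibitor of cyclin-dependent kinases, gained conversion at 11.2%, 10.3% and 10.5% at 4 h against 2.28%, 2.31% and 3.47% at 2 h (adjusted p = 0.000151). It had levels of 26.9 ± 11.8 CPM at 4 h and 53.4 ± 20.9 CPM at 2 h (adjusted p = 0.301). MCL1, which blocks apoptosis and turns over fast, gained likewise, at 14.7% ± 2.53 at 4 h and 4.90% ± 1.90 at 2 h (adjusted p = 0.000279).

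P-TEFb and elongation genes, the pathway of the inhibitors' target, had a median level difference of -0.40, with 0 of 33 called for level and 0 of 27 for conversion. HEXIM1, the P-TEFb inhibitor that is known to respond to CDK9 activity, had 12.3, 9.17 and 11.01 CPM at 4 h and 22.3, 24.8 and 21.8 CPM at 2 h, without overlap (-1.03 ± 0.34, adjusted p = 0.216). In the MYC network 0 of 10 were called (median -0.43), among signalling brakes 0 of 20 (-0.50), among ribosome assembly genes 0 of 40 (-0.28; NGDN and UTP3 are not members of that list) and among 306 zinc finger genes 0 (-0.29). Conversion was called higher in 7 of 95 zinc finger genes (7.37%) and 8 of 74 mitochondrial ribosomal protein genes (10.8%), beside 4.41% of all genes. Heat shock genes had 1 of 22 called for level, HSF2, and S-phase genes 1 of 30, CDC6, beside 0.315% of all genes. The medians of these 2 lists were 0.02 and -0.08. Mitotic genes had 0 of 32 (-0.28), stress response genes 0 of 28 (-0.01), mitochondrial ribosomal protein genes 0 of 77 (0.08) and splicing kinases and SR proteins 0 of 21 (0.02), and with library-size scaling the medians of heat shock, mitochondrial ribosomal protein and SR protein genes were -0.21, -0.16 and -0.22. Apoptosis inhibitors had 0 of 9 called (-0.06), clock genes 0 of 10 (-0.32), neuroendocrine markers 0 of 6 (0.38), nuclear long non-coding genes 0 of 4 (0.23, and -0.01 with library-size scaling) and markers of other cell types 0 of 2 (0.03, and -0.19 with library-size scaling). Of the conversion calls in these lists, HSPA5, the chaperone of the endoplasmic reticulum, had 1.43% ± 0.0692 at 4 h and 0.50% ± 0.139 at 2 h (adjusted p = 0.0192), and CCNL2, a cyclin of splicing, 7.71% ± 1.65 at 4 h and 2.01% ± 0.974 at 2 h (adjusted p = 0.00114).

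**Figure D5:**
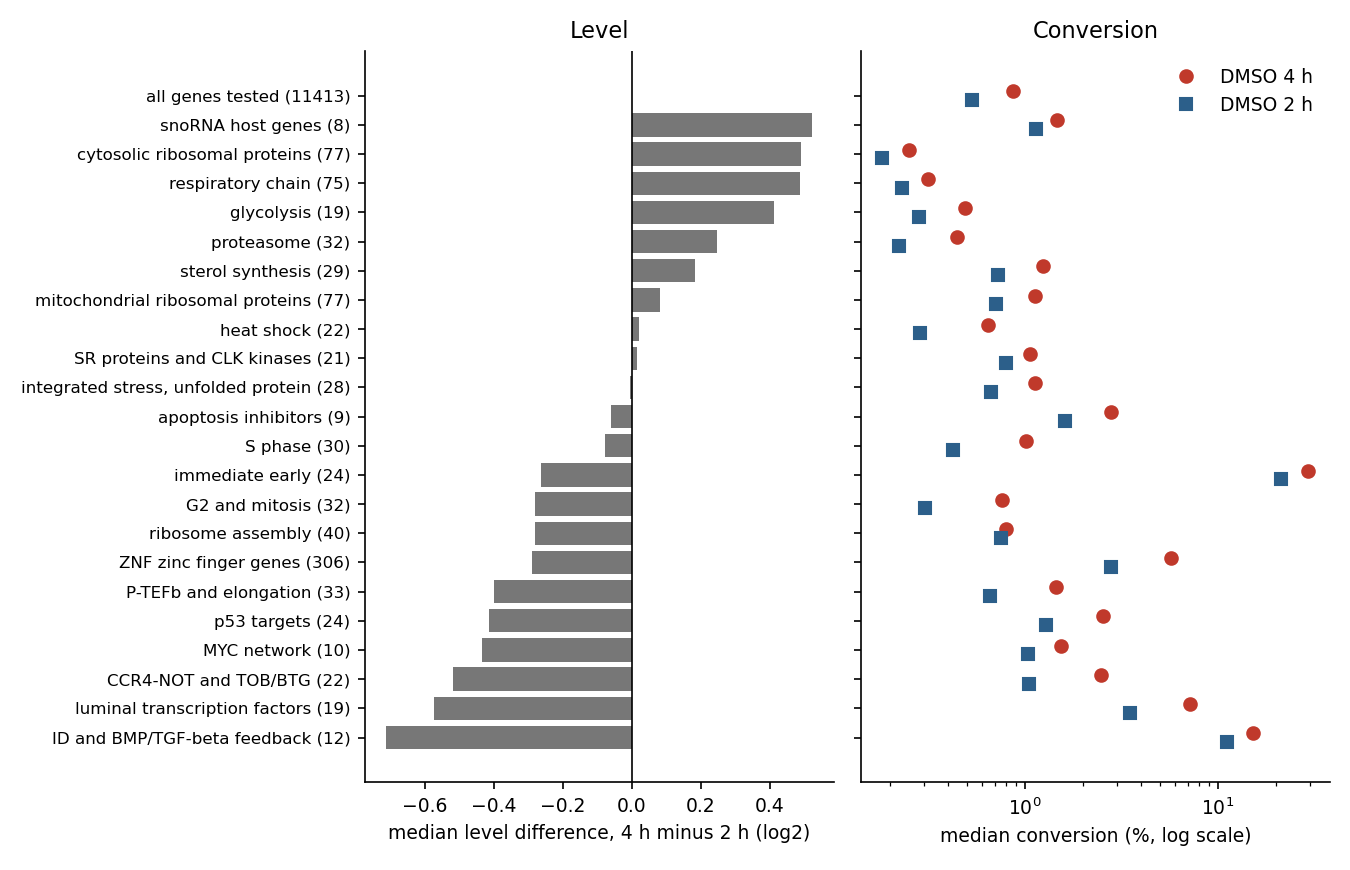
Left, median level difference, DMSO 4 h minus DMSO 2 h, on the log2 scale for gene lists with the number of genes tested in brackets; right, median conversion in percent on a log axis at 4 h (circles) and at 2 h (squares). Ribosomal protein genes have a median difference of 0.49 at conversions below 0.3%, and ID and BMP/TGF-beta feedback genes one of -0.71 at conversions of 15.2% at 4 h and 11.2% at 2 h.

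Immediate early genes were already strongly labelled at 2 h. Their median conversion was 29.4% at 4 h and 21.2% at 2 h over 8 genes. Of these, ZFP36L1 and JUND were called, beside 4.41% of all genes tested. KLF6 converted at 42.0%, 45.7% and 45.3% at 4 h and 32.7%, 35.9% and 34.9% at 2 h (adjusted p = 0.0715), and over the course at 8.74% at 0 h (9.18% without replicate 3) and 51.1% at 8 h. JUN had 30.8% ± 2.85 at 4 h and 23.3% ± 1.35 at 2 h (adjusted p = 0.137), and EGR1 30.6% ± 2.97 at 4 h and 24.3% ± 0.880 at 2 h (adjusted p = 0.405). Within each of the 3 genes the times did not overlap, as in 2113 of all 7648 genes tested, in either direction. JUND, a subunit of AP-1, was at 45.3 ± 11.6 CPM at 4 h and 110 ± 4.01 CPM at 2 h. The median level difference of the list was -0.26, with 0 of 24 called. DNAJB1, a heat-induced co-chaperone, stood at 40.4% ± 2.71 at 4 h and 28.9% ± 3.68 at 2 h (adjusted p = 0.186), and METTL18 at 50.03% ± 4.60 at 4 h and 41.9% ± 4.57 at 2 h (adjusted p = 0.558).

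A panel of 30 genes shows the course over all 4 DMSO times, as mean levels at 0, 2, 4 and 8 h. Without replicate 3 the 0 h levels were 0.722 to 1.43 times those given, and the direction over the course changed in 2 genes, EGR1 and KLK3. RGS2, a brake on G-protein signalling, stood at 677, 25.5, 13.5 and 8.06 CPM (4 h minus 2 h, -0.85 ± 0.31 on the log2 scale, adjusted p = 0.280). ID3 (332, 39.1, 19.2 and 7.73 CPM), ID1 (108, 32.7, 21.8 and 15.1 CPM), FOXA1 (217, 94.5, 54.1 and 25.4 CPM) and TBX3 (269.8, 57.7, 18.2 and 6.61 CPM) stepped down at each time. MCL1 (187, 57.2, 35.8 and 33.1 CPM), HEXIM1 (51.0, 23.0, 10.8 and 3.64 CPM), CCNL2 (70.7, 31.1, 15.1 and 14.8 CPM), INSIG1 (219, 100.2, 75.1 and 51.7 CPM) and MYC (28.2, 6.46, 5.08 and 0.543 CPM) did as well, and of all 10 TBX3 alone was called between 2 and 4 h.

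HOXB13, a prostate homeobox factor, had 171, 191, 127 and 93.6 CPM, SOX4 374, 210, 194 and 211 CPM, CDKN1A 52.8, 53.4, 26.9 and 24.5 CPM and the mitotic cyclin CCNB1 118, 115, 84.4 and 53.8 CPM. CLK1 had 24.2, 3.17, 2.84 and 0.776 CPM, IER2 26.0, 5.98, 5.14 and 5.71 CPM and FOS 6.29, 3.73, 2.41 and 2.55 CPM, a few reads per library from 2 h on. The strongly labelled KLF6 (66.2, 78.1, 108 and 212 CPM), EGR1 (16.8, 20.9, 23.8 and 53.9 CPM), METTL18 (8.15, 18.3, 23.5 and 36.1 CPM) and MIR22HG (12.3, 37.8, 48.9 and 65.9 CPM) stepped up instead, EGR1 not from 0 to 2 h without 0 h replicate 3 (24.1 CPM at 0 h). Among weakly labelled genes, RPL19 (1217, 1750.0, 2874 and 4670.0 CPM), UQCR11 (264, 428, 582 and 1011 CPM) and GAPDH of glycolysis (2509, 3564, 4506 and 5597 CPM) stepped up too. None of the genes of this paragraph was called for level between 2 and 4 h. JUN (33.0, 31.0, 39.5 and 63.1 CPM), DNAJB1 (82.1, 49.0, 69.1 and 82.7 CPM), SNHG1 (171, 109.8, 140.0 and 201 CPM) and KLK3 (17.4, 13.7, 15.4 and 28 CPM) had no single direction over the course (KLK3 had 12.6 CPM at 0 h without replicate 3 and then stepped up), and MALAT1 was not among the genes tested.

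Among the genes with higher levels at 4 h none passed the test, so the first 10 by unadjusted p are given as values. AIG1 had 69.2, 71.8 and 79.7 CPM at 4 h and 33.2, 40.8 and 32.5 CPM at 2 h, without overlap (log2 difference 1.03 ± 0.25, adjusted p = 0.0720). SNHG32, a snoRNA host, averaged 374 ± 38.8 CPM at 4 h and 210 ± 52.1 CPM at 2 h (adjusted p = 0.0771). SRD5A1, which converts testosterone to dihydrotestosterone, had 19.6, 25.1 and 28.5 CPM at 4 h and 11.7, 11.3 and 10.1 CPM at 2 h (1.07 ± 0.29, adjusted p = 0.108). The times did not overlap in either gene, as in 2452 of all 11413 genes tested for level, in either direction. HLA-B, whose reads may be shared with its paralogues, ALDH6A1, RBBP7, TMSB15A, NDUFS5, SCARB2 and IFI30 followed, with adjusted p between 0.0793 and 0.162. SRD5A1, SNHG32 and AIG1 converted at 0.175%, 0.144% and 0.246% at 4 h, all below the median of the genes tested (0.863%). HLA-B alone of the 10 was above that median, at 1.33%.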

How the data were processed

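The 22Rv1 SLAM-seq libraries read the 3′ ends of transcripts, and the deposited table lists RefSeq transcripts (genome build hg19 per the submitters' processing notes). The first measure is a signal that the authors scaled to a common library total (CPM in the deposited header). Each value was a whole multiple of 1 read's worth (100% within 0.05 of a whole number), so whole reads were recovered, and 0.478% of reads lacked a gene name. The second measure is a fraction deposited as conversion. Of its values above 0 with at least 20 reads, 60.2% are smaller than 1 of those reads would give, so it is not a share of these reads. The names of the aligner and of the conversion caller are not stated in the labels or the table. A gene is its transcript with the highest summed CPM.

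Levels were tested with limma 3.58.1 on log2(CPM + 1) after TMM scaling (edgeR 4.0.16, R 4.3.3), so differences of low genes are understated. Genes passed a minimum count of 10. The median half-width of the 95% interval was 0.865 on the log2 scale. For conversion, limma ran on arcsine square roots, from 20 reads and at least 2 values a group. All 30 libraries in 10 groups entered each fit, and the call threshold was a Benjamini-Hochberg adjusted p of 0.05. Levels in the text are means of rescaled CPM, with per-library values in the order of replicates 1 to 3. The quasi-likelihood test of edgeR, also run on the recovered reads, called 29 genes, and DESeq2 1.42.0 called 153. The limma fits of level and of conversion were tested on simulated data with known changes, not all of which were recovered. The simulated level changes were larger than most of the called falls, so they do not show how well changes of that size are found. The labels do not say that replicates came from separate cultures, so p-values may measure technical spread alone. No replicate pair agreed within sampling noise (chi-square per degree of freedom 11.5 to 20.6).

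For levels, the rule for names took the 10 largest falls and rises among called genes. These had no overlap and at least 10 CPM in the higher group. Where none was called in a direction, the rule took the next 10 by p. For conversion it took the 10 largest gains among called genes with no overlap and 3 values in each group, and up to 5 losses. It also took the 2 leading genes of each of 28 lists and a panel of 30 genes. The called falls beyond these 10 were named after their values were seen, and some leading list genes that passed no test are not described. The members, lists and panel were chosen with earlier results of these data known. Other steps used Python 3.11.15, pandas 2.3.3, numpy 2.4.6, scipy 1.17.1 and matplotlib 3.10.9. Some named genes and 1 list are not reported here.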

Additional observations from a re-analysis of the deposited data

How the results depend on the processing

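The count of 36 level calls, all lower at 4 h, was 201 with library-size scaling, 164 with the deposited scaling, 15 with a pseudocount of 0.25 and 79 with one of 5 (78 lower, 1 higher). It was 5 with the 2 groups fitted alone and 153 with DESeq2 (145 lower, 8 higher). A minimum count of 30 gave 1 gene that was higher. Leaving out 1 library at a time gave 0 to 15 calls, and replicate 1 alone at 4 h gave 0. The 337 conversion gains became 7 on a log2 scale, 79 with replicate 1 alone at 4 h, and 118 to 248 with 1 library left out. Without the 3 libraries that stand apart, an alternative chosen after seeing the data, there were 582 (579 higher, 3 lower). With values from 10 reads, and without DMSO 2 h replicate 3, 1 gene was lower. The difference in conversion change between KB742 and DMSO gave 5 calls from 50 reads, 0 to 8 with 1 library left out and 7 without the 3 libraries. That between KI-ARv-03 and DMSO gave 0 to 1 and 1. The mean conversion difference was 0.223 to 0.342 points with 1 library left out (exact permutation p = 0.2, the smallest possible). No called gene changed its sign under these alternatives, and the cause of these shifts was not tested.

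Replicate numbers did not pair the libraries: deviations of same-numbered 4 h and 2 h libraries correlated at -0.201, -0.153 and -0.0542. With the replicate number as a block there were 30 level calls, 29 of them among the 36, and 331 conversion calls, 1 of them lower. Precision is limited by 3 libraries a group, and intervals cover no error beyond the spread between them. A level in these libraries is relative, and 14 of the 36 falls lie in genes that kept enough reads for a conversion value at 8 h.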
